A study of Mus musculus with 6 samples.

Results

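The earliest response to Snail was read from the pair of arrays taken 6 hours after induction, DKK + dox against DKK, across all genes that a probe set with exactly 1 gene symbol measures. These were 2 of the 6 arrays of the series. Of the 18193 genes with such a probe set, 13558 had a mean intensity over the 6 hour pair above 37.2, the pooled 40th percentile of all values, and are the genes described here; the other 4635 lay at or under that low-signal limit. A2.snail cells are mouse ESCs that switch on a Snail transgene when given doxycycline (dox). All cultures were differentiated as embryoid bodies in serum with the Wnt inhibitor DKK1, and all carried the transgene. The DKK cultures got no dox, and the DKK + dox cultures got dox at 250 ng/mL on day 2. RNA was taken at day 2.25, 2.5 and 3, which is 6, 12 and 24 hours after dox, with 1 array per treatment and time. A difference between 2 arrays therefore has no replicate check, so sizes are given with no test. The only inducible line was A2.snail, and a line given dox without the transgene was not analysed here, so an effect of dox itself and an effect of Snail cannot be told apart.

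Snail is a zinc finger repressor that binds E-boxes, short DNA motifs with the core CAGGTG. It is best known for shutting off E-cadherin and the tight junction genes during epithelial-to-mesenchymal transition (EMT), when sheet-forming cells lose their contacts and start to migrate. In the embryo this happens as epiblast cells enter the primitive streak and become mesoderm, and differentiating ESCs pass through a similar step.

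Genes of epithelial junctions and an epiblast growth factor stood among the genes lower at 6 hours, Zic1, Id4, Eya1 and Alx1 stood among those higher, and the lists of mesenchymal and mesodermal genes had medians near 0. Each difference is the log2(intensity + 20.6) of DKK + dox less that of DKK, with the pooled 25th percentile, 20.6, as the offset, and a gene was counted when the difference reached 1, a 2-fold change on that scale. The scale understates the change of low genes. At 6 hours 48 genes (0.354 percent of those measured) were at least 2-fold lower and 18 (0.133 percent) at least 2-fold higher. At 12 hours the counts over the same genes were 293 lower (2.16 percent) and 134 higher (0.988 percent), and at 24 hours 285 lower (2.1 percent) and 347 higher (2.56 percent). Among these genes, losses outnumbered gains at 6 and 12 hours and not at 24 hours. The filter used the 6 hour pair alone, so genes under the limit at 6 hours were missing from the later counts. Some of them rose, such as Fli1 (1.52 at 12 hours), and some fell, such as Fgf8 (-1.74 at 12 hours). The order of losses and gains at 12 and 24 hours therefore holds only for genes measured at 6 hours. The surplus of losses at 6 hours depended on the scaling: quantile normalization gave 27 lower and 23 higher, and centring each array on its median gave 29 lower and 21 higher, so that the share of higher genes among those counted went from 27.3 percent to 46.0 and 42.0 percent. The median difference of all genes was -0.04 at 6 hours, and 93.6 percent of genes lay within 0.5 of no difference, against 85.2 percent at 12 hours and 80.5 percent at 24 hours.

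**Figure D1:**
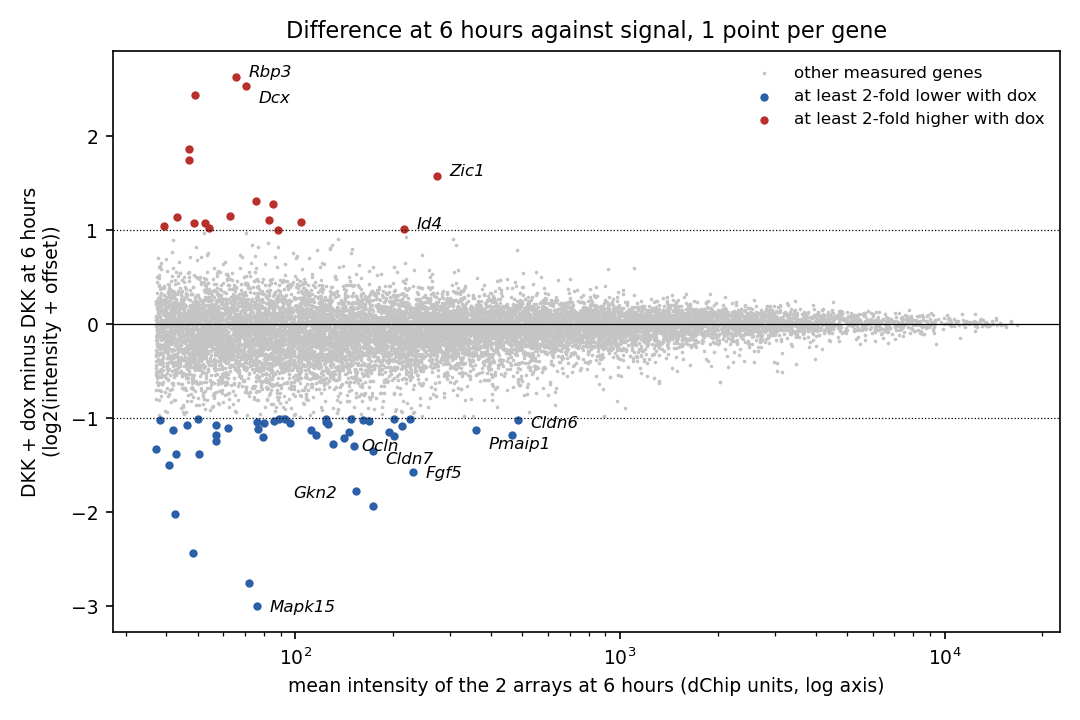
Each point is 1 of the 13558 measured genes; the x axis gives its mean intensity over the 2 arrays at 6 hours on a log axis, and the y axis the DKK + dox minus DKK difference in log2(intensity + 20.6). The 48 genes at least 2-fold lower (blue) and the 18 at least 2-fold higher (red) lie mostly at low signal, and the spread narrows as signal grows.

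Large differences came mostly from dim genes. Ranked by signal, the 3390 dimmest genes held 23 of the 48 losses and 15 of the 18 gains, while the 3391 brightest held 0 of either. One of the 2 arrays at 6 hours was at or under the low-signal limit in 16 of the losses and 12 of the gains. Just inside the threshold on the lower side were Adamts15 and Col20a1 (both -1.005) and Sox1 (-1.002), and just outside were Gnaz, Tmem30b and Lrrc8d (-0.995, -0.994 and -0.993). On the higher side Ccl11 (1.03), Id4 (1.02) and Eya1 (1.003) lay just inside, and Hoxb13 (0.98), Caln1 (0.97) and Soga3 (0.93) just outside.

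Of the 48 losses, 10 were also at least 2-fold lower at both 12 and 24 hours: Fgf5, Cldn7, Lratd2, Spred3, Ocln, Sowahb, Gabra5, Ccdc88c, Cldn6 and Plch1. That is 20.8 percent of the losses, while 1.27 percent of all measured genes were 2-fold lower at both later times; the 3 pairs of arrays share no array. Another 3 losses were 2-fold lower again at 12 hours only, 3 at 24 hours only, and 32 at neither. Of the 18 gains, Zic1, Alx1, Id4 and Eya1 were at least 2-fold higher at both later times, against 0.62 percent of all measured genes. A further 2 gains were 2-fold higher again at 12 hours only, 2 at 24 hours only and 10 at neither.

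The promoters of 3 of the lasting losses are shown because they hold the CAGGTG core upstream of a RefSeq start site. They are the largest losses of at least 2-fold at all 3 times with such a match, as given by RefSeq on assembly GRCm38.p6, and capitals mark each CAGGTG or its reverse complement CACCTG. The Cldn7 stretch is chr11:69965284-69965409 on the plus strand, and its matches begin 97 and 57 bases before the start. The Ocln stretch is chr13:100552521-100552748 on the minus strand, with matches beginning 213 and 68 bases before the start. The Sowahb stretch is chr5:93045139-93045224 on the minus strand, with 1 match beginning 162 bases before the start.
Cldn7: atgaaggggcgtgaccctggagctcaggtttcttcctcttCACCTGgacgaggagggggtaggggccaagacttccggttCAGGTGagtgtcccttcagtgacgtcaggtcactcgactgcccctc
Ocln: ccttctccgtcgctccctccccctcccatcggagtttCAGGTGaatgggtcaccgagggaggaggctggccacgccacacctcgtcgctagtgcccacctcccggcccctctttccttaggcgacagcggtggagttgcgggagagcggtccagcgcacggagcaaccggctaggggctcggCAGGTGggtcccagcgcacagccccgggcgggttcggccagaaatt
Sowahb: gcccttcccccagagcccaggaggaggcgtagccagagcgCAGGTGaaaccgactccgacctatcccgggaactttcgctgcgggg

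Windows from 250 bases before to 50 bases after a start site were searched for CAGGTG on both strands. Of the 48 losses, 33 had a window, and 7 of these (21.2 percent) held the letters, against 22.1 percent of the 10846 measured genes with a window. Of the 10 lasting losses 8 had a window and 4 held the letters, and of the 18 gains 13 had a window and 5 held them. In the whole set of 32851 windows 20.2 percent did. So the losses as a whole held the core about as often as other genes. The shares of the lasting losses and of the gains rest on few genes, and a match shows only that the letters are there.

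The tight junction genes Cldn7, Cldn6 and Ocln were lower at 6 hours and at both later times. Cldn7 encodes a claudin, one of the membrane proteins that seal neighbouring epithelial cells. It read 258, 1099 and 1655 in DKK at 6, 12 and 24 hours and 89.1, 183 and 224 in DKK + dox. The DKK + dox array was lower at every time, and the log2 difference went from -1.35 through -2.46 to -2.78. Cldn6, a claudin of early embryonic epithelia, read 655, 1393 and 2049 on the DKK arrays and 314, 224 and 360 on the DKK + dox arrays. Its difference was -1.01 at 6 hours and -2.53 and -2.44 later. Ocln encodes occludin, a membrane protein of the same junctions. It read 210, 392 and 501 on the DKK arrays and 83.2, 67.6 and 86.0 on the DKK + dox arrays, with differences of -1.15, -2.23 and -2.29. A second measured probe set of Ocln gave -0.42 at 6 hours. For all 3 genes the DKK level climbed between 6 and 24 hours while the DKK + dox level stayed below the DKK level of 6 hours.

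Fgf5 encodes a growth factor that marks the epiblast after implantation. It read 354, 1244 and 1821 on the DKK arrays and 106, 175 and 541 on the DKK + dox arrays, so its level climbed in both series and was lower with dox at each time. Its differences were -1.56, -2.69 and -1.71, the largest loss at 6 hours among the 10 lasting ones, and its other measured probe set gave -1.26 at 6 hours. Spred3, from the Sprouty-related family that dampens ERK signaling, read 118, 253 and 271 on the DKK arrays and 40.02, 89.6 and 123 on the DKK + dox arrays. Its differences were -1.20, -1.31 and -1.02, so its early difference was about as large as the later ones.

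Ccdc88c encodes Daple, a Dishevelled-binding protein of the Wnt pathway. It read 233, 384 and 343 on the DKK arrays and 104, 95.7 and 97.1 on the DKK + dox arrays, with differences of -1.02, -1.80 and -1.63. Its other measured probe sets gave -1.03 and -0.38 at 6 hours. Plch1, a phospholipase C, read 308, 519 and 553 on the DKK arrays and 143, 107 and 183 on the DKK + dox arrays, with differences of -1.01, -2.08 and -1.49. In both genes every dox array was below every DKK array.

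Gabra5, an alpha subunit of the GABA-A receptor, read 84.4, 214 and 166 on the DKK arrays and 29.4, 43.1 and 52.9 on the DKK + dox arrays. Sowahb read 92.4, 161 and 136 on the DKK arrays and 31.9, 36.1 and 39.3 on the DKK + dox arrays, close to the low-signal limit on all 3 dox arrays. Their differences at 6 hours were -1.07 and -1.11, and both had one 6 hour array under the limit. Lratd2 read 194, 522 and 566 on the DKK arrays and 68.3, 152 and 266 on the DKK + dox arrays, with differences of -1.27, -1.65 and -1.03.

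In the 10 lasting losses as a group, the DKK array was higher at 24 than at 6 hours in 10 of 10, by at least 2-fold in 6, with a median DKK change of 1.12 on the log2 scale. Over all measured genes the same DKK change had a median of -0.10. The 6 hour DKK + dox array was the lowest of all 6 arrays in 6 of the 10. The 10 genes were picked with the 24 hour DKK array as part of the rule, and a high value there favours being picked. The climb therefore describes the genes picked, and its contrast with all measured genes is partly set by the selection. Whether fewer cells held such a transcript or each cell held less of it cannot be told apart in bulk RNA.

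**Figure D2:**
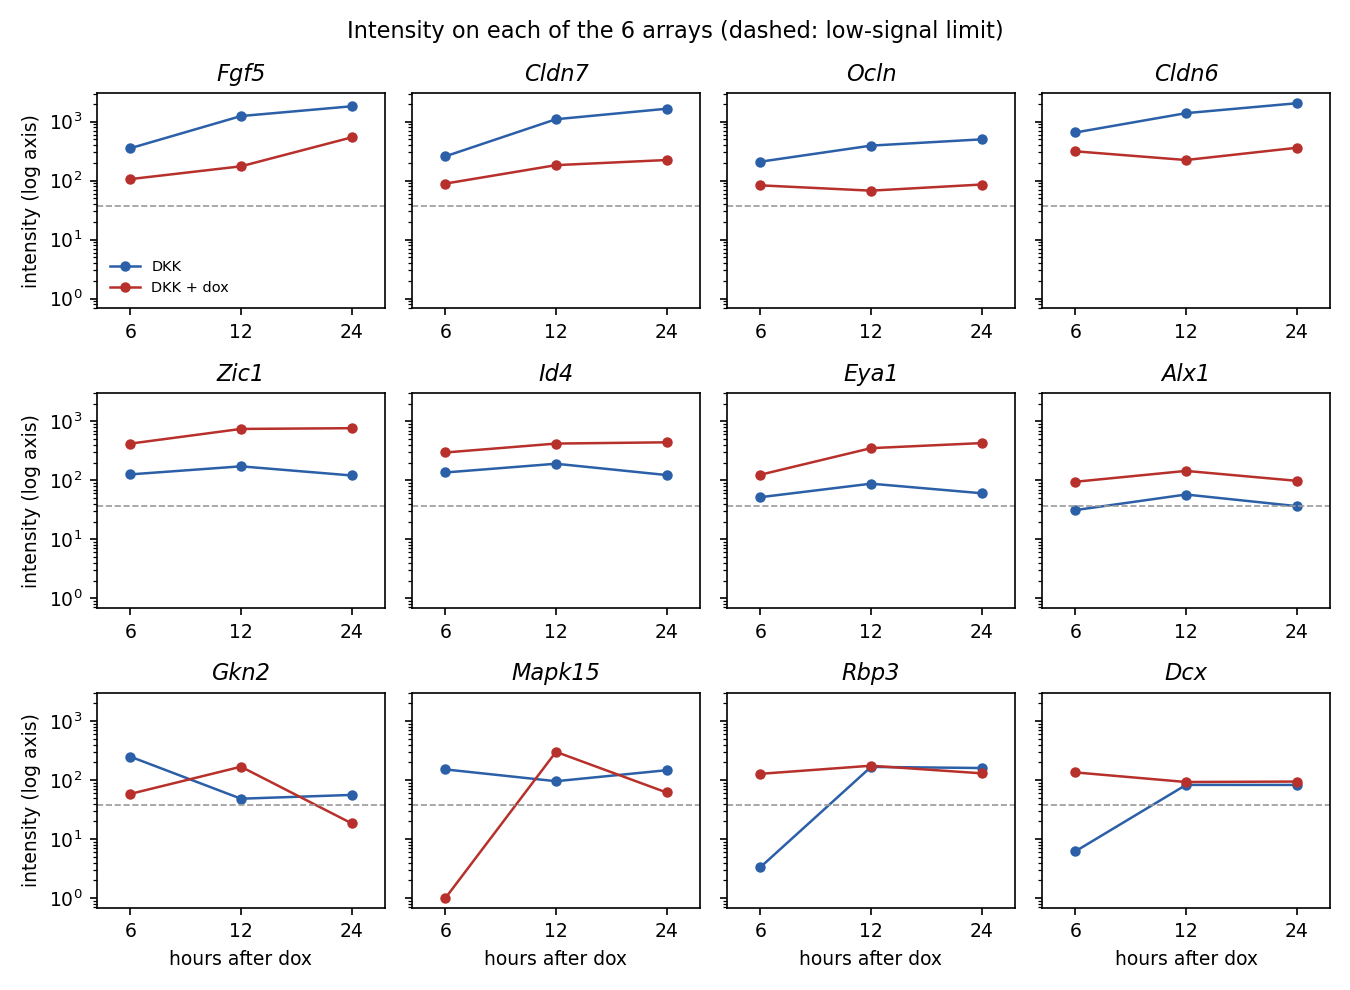
Each panel gives 1 gene's intensity (log axis) at 6, 12 and 24 hours after dox on the 3 DKK arrays (blue) and the 3 DKK + dox arrays (red), with 1 array per point; the dashed line is the low-signal limit of 37.2. The top row shows lasting losses, the middle row lasting gains, and the bottom row genes counted at 6 hours whose arrays crossed or met at 12 hours.

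Of the 48 losses, 22 were lower again at 12 hours (45.8 percent), against 45.7 percent of all measured genes. The median difference of the 48 at 12 hours was 0.21. At 24 hours 36 of them were lower, against 47.7 percent of all measured genes, with a median of -0.40. As a whole the losses thus leaned lower at 24 hours but not at 12 hours. Lower at all 3 times were 19 of the 48, and not all of these reached 2-fold at each. Pmaip1 encodes Noxa, a pro-apoptotic BH3-only protein and p53 target. It read 501, 1165 and 1128 on the DKK arrays and 218, 276 and 554 on the DKK + dox arrays, with differences of -1.13, -2.001 and -0.9998, the last just short of the threshold. Rprm (reprimo), another p53-dependent gene, tied to cell cycle arrest, had differences of -1.18, -2.70 and -0.96. Myb, a transcription factor of immature cells, had -1.15, -1.21 and -0.78. Sox1, an early neural transcription factor, read 275, 220 and 108 on the DKK arrays and 127, 105 and 64.8 on the DKK + dox arrays, and its difference shrank from -1.002 to -0.59 as its DKK level sank. Igtp, an interferon-induced GTPase, had -1.18, -0.73 and -0.39, and Pcdh1, a protocadherin, -1.04, -0.59 and -0.18. In Sertad4 the difference passed from -1.30 through -0.56 to 0.36.

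Most of the largest losses at 6 hours were not 2-fold lower at both later times. Mapk15, an atypical MAP kinase, read 152 in DKK and 1 in DKK + dox at 6 hours, and 1 is the lowest value in the table, so the difference of -2.99 depends on the offset. It then read 95.7 in DKK and 301 in DKK + dox at 12 hours, the opposite order, and 147 and 61.7 at 24 hours. Pde3a, a cyclic nucleotide phosphodiesterase, had differences of -1.93, 1.05 and -1.58, and Gkn2, a secreted stomach protein, -1.78, 1.46 and -0.97. 9630015K15Rik (-2.75), Nccrp1 (-2.43) and Bcan (-2.02), which encodes the brain proteoglycan brevican, read 3.32, 1 and 4.37 on the 6 hour dox array, all under the limit. Oxct2a (-1.50), Tsga13 (-1.38), Adh6a (-1.38), E230013L22Rik (-1.32), Sh3tc1 (-1.24) and Sgip1 (-1.21) were 2-fold lower at neither later time. Ism1, which encodes the secreted protein isthmin, was brighter: it read 654, 179 and 272 on the DKK arrays and 278, 323 and 307 on the DKK + dox arrays. Its DKK array at 6 hours stood above the other 5 arrays, and its other measured probe set gave -0.30.

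The 6 hour DKK array held the highest value of the 6 arrays in 26 of the 48 losses. This was so in 24 of the 32 losses that were 2-fold lower at neither later time and in 0 of the 10 lasting ones. A high 6 hour DKK value favours being counted as a loss, and high later DKK values favour lasting. These counts are therefore partly set by the selection. Of the 48 losses 7 had another measured probe set, which was also lower in 6, by at least 2-fold in 2. The part of the DKK array at 6 hours in the short-lived losses was not tested.

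**Figure D3:**
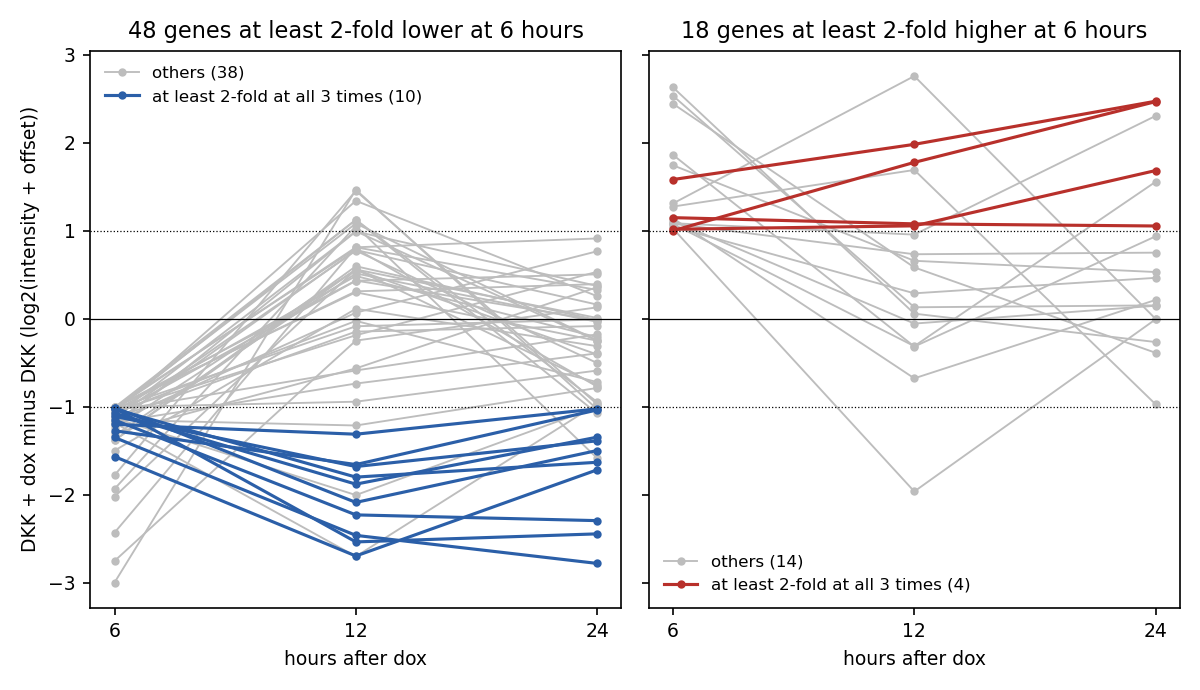
Each line is 1 gene counted at 6 hours, with its DKK + dox minus DKK difference in log2(intensity + 20.6) at 6, 12 and 24 hours after dox; dotted lines mark 2-fold. The 10 of 48 losses (blue) and 4 of 18 gains (red) that kept at least 2-fold at all 3 times stand apart from the grey lines, many of which cross 0 at 12 hours.

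The 4 lasting gains were Zic1, Id4, Eya1 and Alx1. Zic1, a zinc finger transcription factor of neural and mesodermal tissue, read 126, 173 and 121 on the DKK arrays and 420, 745 and 766 on the DKK + dox arrays. Every dox array was above every DKK array, and the differences were 1.58, 1.98 and 2.47. Id4, an inhibitor of bHLH transcription factors and a BMP target, read 136, 191 and 123 on the DKK arrays and 297, 420 and 442 on the DKK + dox arrays. Its differences were 1.02, 1.06 and 1.69, and its other measured probe sets gave 0.54 and 0.87 at 6 hours, both in the same direction. Eya1, a transcriptional coactivator and phosphatase, read 51.9, 87.9 and 60.5 on the DKK arrays and 125, 352 and 428 on the DKK + dox arrays, with differences of 1.003, 1.78 and 2.47. A second measured probe set of Eya1 went the other way at 6 hours (-0.57). Alx1, a homeodomain factor of craniofacial mesenchyme, read 31.3, 57.6 and 36.6 on the DKK arrays and 94.7, 145 and 98.3 on the DKK + dox arrays. Its differences were 1.15, 1.08 and 1.06, its DKK arrays at 6 and 24 hours lay under the low-signal limit, and another probe set gave 1.48. In all 4 genes the DKK level at 24 hours was within 2-fold of that at 6 hours, as it also was in 4 of the 10 lasting losses (Gabra5, Sowahb, Ccdc88c and Plch1).

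Zfp711, a zinc finger protein, missed the threshold at 12 hours only. It read 59.2, 181 and 151 on the DKK arrays and 149, 371 and 831 on the DKK + dox arrays, with differences of 1.09, 0.96 and 2.31. Marchf11 also stayed higher, with 1.08, 0.73 and 0.75. The gains with the greatest size at 6 hours had no later counterpart. Rbp3, a photoreceptor retinoid carrier, read 3.34 in DKK and 128 in DKK + dox at 6 hours and between 130 and 175 on the 4 later arrays. Dcx, which encodes the microtubule protein doublecortin of young neurons, read 6.21 and 135, and then between 82.8 and 94.4 on the later arrays; its other measured probe set gave -0.11 at 6 hours. In Rbp3 and Dcx, then, the DKK array at 6 hours stood apart from the other 5. Saa3, an acute-phase protein, read 1, 16.2 and 60.4 on the DKK arrays and 97.0, 34.6 and 41.4 on the DKK + dox arrays, in no steady order.

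The other gains were G630016G05Rik (1.86), Plekhs1 (1.75), 5930403N24Rik (1.31), Ttc38 (1.28), Fmo2 (1.14), 4930402H24Rik (1.11), Gm30058 (1.08), Ppp6r2 (1.05) and Ccl11 (1.03), the chemokine eotaxin. 5930403N24Rik and Ttc38 were 2-fold higher again at 12 hours (2.76 and 1.69) but not at 24 hours, and Gm30058 at 24 hours (1.56) but not at 12 hours. The 6 hour DKK array was the lowest of the 6 arrays in 10 of the 18 gains, a count partly set by the selection, as a low value there favours being counted. Of the 6 gains with another measured probe set, 2 had all of them higher too.

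Epithelial genes were lower as a group, by small amounts. The 6 lists of epithelial genes held 78 genes, of which 70 were measured at 6 hours. Of these, 58 had a negative difference, where 58.3 percent of all measured genes did, with a median of -0.32 against -0.04 over all measured genes. At least 1.5-fold lower were 18 of the 70, against 3.53 percent of all measured genes, and 1 was 1.5-fold higher, against 0.597 percent. The count at 2-fold went from 3 of 70 at 6 hours to 23 at 12 hours and 28 at 24 hours. Over all measured genes 0.354, 2.16 and 2.1 percent were 2-fold lower at these times. None of the 70 was 2-fold higher at any of the 3 times, against 0.133, 0.988 and 2.56 percent of all measured genes. With all-gene shares this low, a count of 0 among 70 genes says little about them.

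Within them, 13 of 14 tight junction genes were lower, with a median of -0.43, and the 2-fold members were Cldn7, Ocln and Cldn6. Without the filter on low signal, which left out Cldn1 (0.13) and Cldn23 (0.59), that median was -0.28. At 24 hours 10 of the 14 were lower, and Tjp1 (0.10), Marveld3 (0.49), Cxadr (0.15) and Cldn12 (0.19) were not. Marveld2, which encodes tricellulin, read 90.2, 334 and 431 on the DKK arrays and 43.0, 50.5 and 87.1 on the DKK + dox arrays, for -0.80, -2.32 and -2.07. All 6 membrane serine proteases and inhibitors were lower, with a median of -0.55. They included St14, which encodes matriptase (-0.70), and its inhibitor Spint1 (-0.68), while the inhibitor Spint2 was at -0.17 at 6 hours and -1.45 at 12 hours. Of 11 desmosome and keratin genes 9 were lower (median -0.32), led by Krt18 (-0.92) and the plakophilin Pkp2 (-0.75), while Krt8 was at 0.08. Of 16 polarity and trafficking genes 11 were lower, near the share of all genes, and the median of -0.20 became -0.05 with the stricter signal limit, with all probe sets averaged or with plain probe sets alone, and -0.12 with centred arrays. The lowest were the flippase subunit Tmem30b (-0.99) and the polarity adaptor Pard6b (-0.93), and the highest was the polarity scaffold Patj (0.72).

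Adherens junction genes differed less. Their 11 measured members had a median of -0.16, which was -0.08 with centred arrays. Cdh1, which encodes E-cadherin, read 4481 in DKK and 3465 in DKK + dox at 6 hours, a difference of -0.37 that became -1.05 at 12 hours and -1.02 at 24 hours. Cdh3, which encodes P-cadherin, had -0.86, -0.20 and -1.15, and the catenin gene Ctnnb1 0.04 at 6 hours. Of 12 epithelial transcription and splicing factors 11 were lower (median -0.31, and -0.20 with quantile normalization). Esrp1, a splicing factor of epithelial cells, had -0.81, -1.69 and -1.97, and Grhl1, a grainyhead-like factor, -0.80, -1.77 and -1.41, while Tfap2c was higher (0.51). A list of genes known from other cells as repressed by Snail had 10 measured members. All 10 were lower at 6 hours, 8 at 12 hours and 9 at 24 hours, with medians of -0.71, -1.16 and -1.32. The filter on low signal left out Vdr (0.91 at 6 hours) and Muc1 (0.28), both higher. This list shares members with the epithelial lists.

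Mesenchymal, endothelial and mesodermal genes had medians near 0 at 6 hours. The 3 lists of these held 64 measured genes, with medians of 0.00, 0.40 and 0.84 at 6, 12 and 24 hours. None of the 64 was 2-fold higher at 6 hours, 16 were at 12 hours and 31 at 24 hours, against 0.133, 0.988 and 2.56 percent of all measured genes. At 6 hours the all-gene share is itself so low that a count of 0 among 64 genes says nothing about them. Tgfbi, a secreted matrix protein, read 245, 68.7 and 51.3 on the DKK arrays and 369, 628 and 1293 on the DKK + dox arrays, for 0.55, 2.86 and 4.19. Among the listed fibrillar collagen genes, Col5a2 had 0.56, 1.14 and 2.48, while Col1a1 (-0.61) and Col1a2 (-0.47) were lower at 6 hours. Col5a1 (0.08) and Col3a1 (-0.03) differed little at 6 hours. Isl1, a LIM-homeodomain factor of cardiac progenitors, had the greatest size of the lateral and cardiac list, with 0.81, 1.96 and 2.71. The endothelial ETS factors Ets1 (0.48), Etv2 (0.47) and Elk3 (0.46) were each 2-fold higher by 24 hours, at 3.55, 1.64 and 3.04. Kdr, which encodes the Flk1 receptor, was at -0.28 at 6 hours and at 1.71 and 2.85 later.

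The EMT transcription factors had a median of 0.05 over 9 measured members, which was -0.06 when all probe sets of a gene were averaged. Twist1 (0.65, 1.21 and 1.76), Zeb2 (0.47, 1.81 and 1.98) and Zeb1 (0.38, 1.34 and 2.70) were higher at each time and grew, while Snai2 was lower at each (-0.32, -0.49 and -0.36). All these repressors belong to the same EMT programme as Snail, and none had reached 2-fold at 6 hours. Of the 6 measured primitive streak genes Mixl1 was highest (0.38) and Lhx1 lowest (-0.57), with a median of -0.12.

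**Figure D4:**
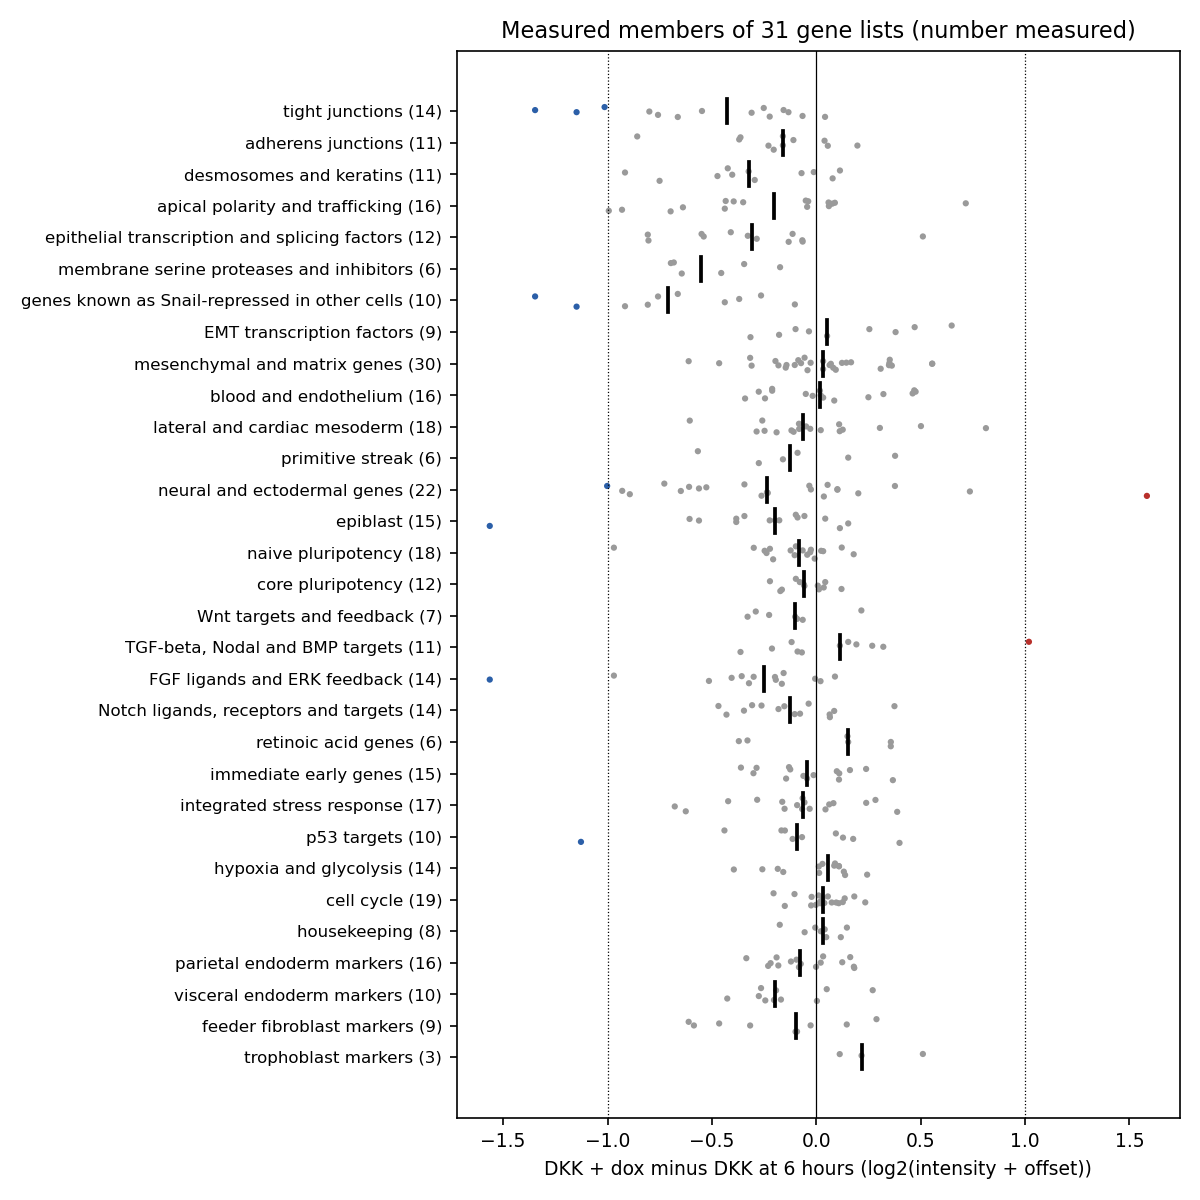
Each point is a measured member of 1 of 31 gene lists, placed by its DKK + dox minus DKK difference at 6 hours in log2(intensity + 20.6); black bars are list medians, and blue and red points passed 2-fold. The medians of the epithelial lists at the top lie left of 0, down to -0.71 for the genes known as Snail-repressed, while most others lie closer to 0.

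Neural and ectodermal genes split. Of 22 measured, 14 were lower, near the share of all genes, with a median of -0.23, 1 was 2-fold lower (Sox1) and 1 was 2-fold higher (Zic1). The neural transcription factors Hes6 (-0.93, -1.70 and -1.13), Zic5 (-0.89, -1.07 and -0.73) and Sox3 (-0.73, -0.90 and -0.94) were lower at all 3 times. Lhx2 (0.74, 0.83 and 1.32) and Irx3 (0.38, 1.08 and 2.34), homeobox genes, were higher at all 3 times. Zic1 and Zic5, members of one family, thus differed in opposite directions.

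Of the naive pluripotency list Fgf4 had the largest difference at 6 hours. Fgf4, which drives ERK signaling in ESCs, read 1189, 817 and 433 on the DKK arrays and 597, 320 and 126 on the DKK + dox arrays, for -0.97, -1.30 and -1.63. Its level sank in both series, unlike that of Fgf5, and was lower with dox at each time. Of 14 FGF ligands and ERK feedback genes 12 were lower at 6 hours (median -0.25), with the ligand Fgf15 at -0.20 and the feedback inhibitors Spry1 at -0.51 and Dusp6 at -0.01. The epiblast list had 12 of 15 lower and a median of -0.20, with Fgf5 as its 2-fold member, the kinase Pim2 at -0.61 and Zic2 at -0.56. The naive pluripotency list, which includes Fgf4, had a median of -0.08.

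Core pluripotency genes differed little, and at 6 hours the cells carried them at high signal on both arrays. Pou5f1, which encodes Oct4, read 6046 in DKK and 6100 in DKK + dox, Sox2 5991 and 5342, and Nanog 1832 and 1711. All 12 measured core genes lay between -0.22 and 0.12, with a median of -0.06 that became 0.02 with centred arrays. Of markers of other cells, the 16 of parietal endoderm were all measured and summed to 6779 in DKK and 6457 in DKK + dox. Visceral endoderm had 10 of 16 markers measured, summing to 1561 and 1378, with Afp at 22.1 and 1.63, under the limit. Feeder fibroblast markers, relevant because the line was kept on feeders before a passage without them, had 9 of 14 measured, summing to 2918 and 2616, with Postn, Lum, Fap and Prrx1 under the limit on both arrays. Of 10 trophoblast markers 3 were measured, summing to 246 and 313, with Cdx2, Elf5 and Gata3 under the limit by their pair mean. None of the measured markers of these 4 lists reached 2-fold at 6 hours. Over all measured genes only 0.354 percent were lower and 0.133 percent higher, so this count says nothing about them. At least 1.5-fold lower were 2 of the 9 feeder markers, Col1a1 (-0.61) and Dcn (-0.59), against 3.53 percent of all measured genes. In the other lists of markers none was. The part of all these markers in the other results was not tested.

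The remaining signaling and stress lists had medians from -0.13 to 0.15, beside -0.04 over all measured genes. Wnt targets and feedback genes, in cultures with the inhibitor DKK1 on both sides, had a median of -0.10 over 7 members, with Axin2 at -0.29. TGF-beta, Nodal and BMP targets had 0.11 over 11, with Id4 as the 2-fold member beside Id1 (0.32) and Id3 (0.27) and against Id2 (-0.36). Notch genes had -0.13 over 14 and retinoic acid genes 0.15 over 6, a value that turned to -0.09 with plain probe sets alone or a stricter signal limit. Medians were -0.04 for immediate early genes, which turned to 0.04 with centred arrays, -0.07 for the integrated stress response, which turned to 0.02, and -0.09 for p53 targets, with Pmaip1 2-fold lower and Bbc3, its fellow BH3-only gene, at -0.44. Hypoxia and glycolysis genes (0.06), cell cycle genes (0.03) and housekeeping genes (0.03) were level. Over all 31 lists, 361 of 449 genes were measured, and 6 were 2-fold lower and 2 higher. Over all 13558 measured genes 0.354 percent were lower and 0.133 percent higher. Most of the genes counted at 6 hours were on no list, but so were most measured genes.

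Most genes that differed later already leaned the same way at 6 hours, the later losses more often than the later gains. Of the 285 genes 2-fold lower at 24 hours, 269 (94.4 percent) had a negative difference at 6 hours, against 58.3 percent of all measured genes, and their median at 6 hours was -0.43. At least 1.5-fold lower at 6 hours were 86 of them (30.2 percent), and 13 were 2-fold lower. Of the 293 genes 2-fold lower at 12 hours, 271 (92.5 percent) were negative at 6 hours, with a median of -0.46. Of the 134 genes 2-fold higher at 12 hours, 96 (71.6 percent) were positive at 6 hours, with a median of 0.24. At 6 hours 6 of these 134 were 2-fold higher and 7 were 2-fold lower. Of the 347 genes 2-fold higher at 24 hours 266 (76.7 percent) were positive at 6 hours, against 41.7 percent of all measured genes, with a median of 0.17. Of these, 24 (6.92 percent) were at least 1.5-fold higher at 6 hours, against 0.597 percent of all measured genes; for the later losses the 30.2 percent stands against 3.53 percent. Over all measured genes the differences at 6 hours correlated with those at 12 hours at Pearson r = 0.30 and with those at 24 hours at r = 0.38, a description across genes that share the array design.

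**Figure D5:**
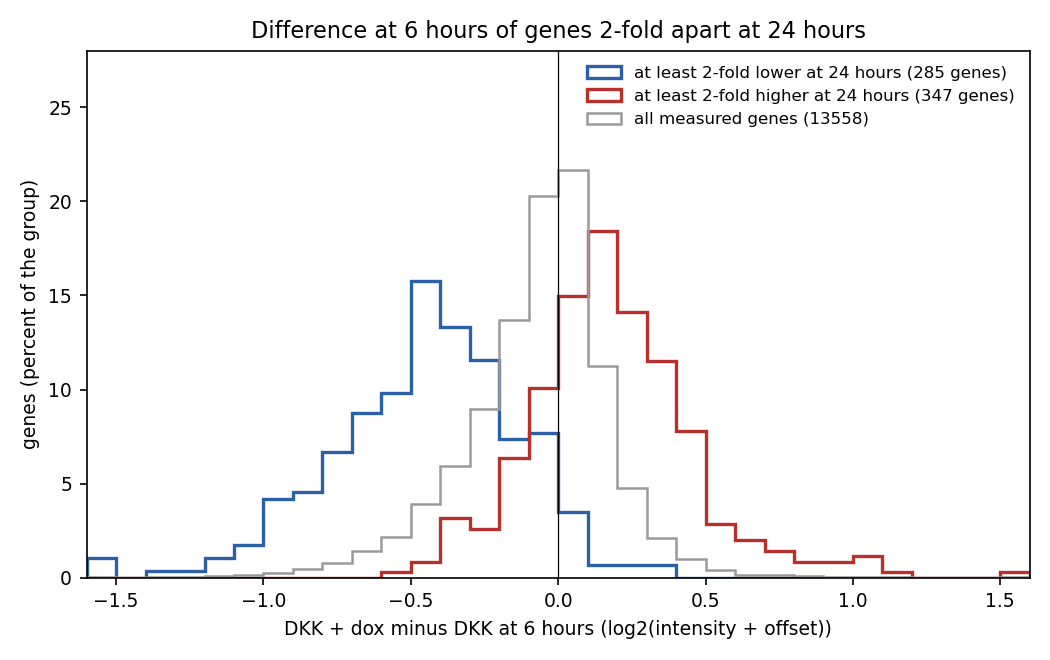
The x axis gives the difference at 6 hours in log2(intensity + 20.6), in bins, with values beyond the axis in the end bins, and the y axis the percent of each group in a bin. The 285 genes 2-fold lower at 24 hours (blue) lie mostly left of 0 and the 347 genes 2-fold higher (red) lie closer to 0, beside all 13558 measured genes (grey).

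At a 1.5-fold threshold 478 genes were lower at 6 hours and 120 of them were 1.5-fold lower at both later times, against 3.59 percent of all measured genes. Of 81 genes higher, 26 were 1.5-fold higher at both later times, against 2.62 percent. The lasting 1.5-fold losses included, chosen here once their values were known, Erbb3, a neuregulin receptor (-0.91 at 6 hours), Podxl, which encodes the apical sialomucin podocalyxin (-0.88), and Plekha7, an adherens junction protein (-0.95). The lasting 1.5-fold gains, picked in the same way, included the transcription factor gene Ebf1 (0.91 at 6 hours), the ephrin genes Efnb1 (0.63) and Efna5 (0.61), and Vldlr, a lipoprotein receptor gene (0.71).

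The labels could be checked only in part. The probe set of Snai1 read 32.9 in DKK and 29.6 in DKK + dox at 6 hours, under the low-signal limit, and whether it lies in the transgene was not analysed here. Hprt, next to which the dox-regulated transgene is placed in lines of the A2lox type, read 405, 330 and 331 on the DKK arrays and 603, 1065 and 2293 on the DKK + dox arrays. Its difference was 0.55 at 6 hours and grew to 1.63 and 2.72, so the dox array was the higher at each time. The median intensity over all probe sets was 63.7 in DKK and 59.1 in DKK + dox at 6 hours.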

How the data were processed

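RNA of 6 cultures was hybridised to Affymetrix mouse arrays, 1 array per treatment and time. The deposited values are linear intensities that the authors normalized and modeled with dChip; which version and model is not given in the sources used here, and nothing lies under 1. The platform annotation paired 34945 of the 45037 probe sets with 1 symbol (34741 of them matched the RefSeq table of GRCm38.p6 by Entrez ID), 932 with several and 9160 with none; only those with 1 symbol were used. Where a gene had several, the probe set of highest mean over the 6 arrays stood for it. Values were taken as log2(intensity + 20.61), and genes were kept where the mean of the 6 hour pair exceeded 37.19. Between 37.5 and 41.3 percent of probe sets per array lay at or under this limit, which with 1 array per group limits the precision. No test was run and no p-value is given. Python 3.11.15, pandas 2.3.3, numpy 2.4.6 and matplotlib 3.10.9 were used, and the counting was tested on simulated data.

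The genes, the 31 lists and the rules were chosen with earlier results of these data known. Named were Snai1 and Hprt, the 20 largest losses and gains at 6 hours (18 gains were counted), the genes counted at 6 hours that were 2-fold the opposite way later, the 2-fold or otherwise largest members of each list, and the genes nearest the threshold. Other members of the lists and of the counted genes were picked out after their values were seen. Alternatives changed the offset, filter, scaling, probe set and fold threshold. The other data of the study were not analysed here.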

Additional observations from a re-analysis of the deposited data

Results flagged for a closer look

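At 12 hours 8 of the genes counted at 6 hours were at least 2-fold the opposite way, which picked them out; the difference between the times was not tested. Over all measured genes 0.988 percent were 2-fold higher at 12 hours and 2.16 percent 2-fold lower. The 8 were 7 of the 48 losses and 1 of the 18 gains. Their log2 differences at 12 hours were 1.47 for Mapk15, 1.46 for Gkn2, 1.34 for 1810062O18Rik, 1.13 for Clcf1, 1.13 for Col20a1, 1.08 for Xk and 1.05 for Pde3a, after -2.99, -1.78, -1.06, -1.04, -1.005, -1.02 and -1.93 at 6 hours. Ccl11, a gain of 1.03 at 6 hours, was at -1.96 at 12 hours, where its DKK + dox array was at the lowest value of 1. Other probe sets of Clcf1 gave 0.03 and 0.05 at 6 hours, and another of Col20a1 gave -0.07. Mapk15, Pde3a and Clcf1 were again at least 2-fold lower at 24 hours (-1.03, -1.58 and -1.07).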

How the results depend on the processing

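The counts of genes depended on the settings. From 48 lower and 18 higher genes, of which 10 and 4 lasted at 2-fold through both later times, an offset of 1 gave 151 and 36, with 36 and 10 lasting, and an offset of 50 gave 14 and 6, with 2 and 1 lasting. Without a filter on low signal 90 genes were lower and 52 higher, a filter on the highest of the 6 arrays gave 40 higher, and the pooled 60th percentile as the limit gave 25 and 3, with 2 lasting gains. Requiring both 6 hour arrays above the limit, an alternative chosen after seeing the data, left 6 gains and 32 losses, of which 3 and 8 lasted. Quantile normalization gave 27 losses and 7 lasting gains, and centring gave 29 losses. The mean of all probe sets gave 10 gains, 1 of them lasting, and turned Col20a1 to 0.078. At 1.5-fold the counts were 478 and 81, with 120 and 26 lasting, and at 3-fold 6 and 5, with 0 lasting of either. The 27 losses of quantile normalization and the 29 of centring were all among the 48, and all 18 gains stayed counted in both. For genes named by rule, 361 of 362 values under alternatives kept their sign, and 319 stayed at 2-fold. A change of offset or filter cannot turn the sign of a single gene's difference, so much of the first count was fixed in advance. With an offset of 50, 19 of 42 stayed at 2-fold, and with all probe sets averaged 27 of 38 did. Of 310 list medians 296 kept their sign. In all, 14 medians moved by more than 0.129, the median absolute deviation of all 6 hour differences. With 1 array per group, no array could be left out. No paired analysis was possible either, as 1 array per group gives only 1 pair at 6 hours. A fit over all 3 times with time as a block was not run, as it does not estimate the difference at 6 hours.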
